A study of Mus musculus with 2 samples.

Results

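Robo1, Robo2, Robo3, Slit1, Slit2, Slit3, Ntn1, Dcc and Unc5c are the 9 axon guidance genes described here, out of 19608 genes listed in either of the tables of molecules counted in single cells. They were chosen by name as 4 secreted ligands (Slit1, Slit2, Slit3 and the netrin gene Ntn1) and 5 receptors (Robo1, Robo2, Robo3, Dcc and Unc5c). The cells were Sox1-GFP+ cells of transgenic mice, in which a green fluorescent protein reports Sox1, a transcription factor of the neuroepithelium. They were sorted by flow cytometry from minced, trypsin-treated tissue, with no other treatment, and each tissue gave 1 library on the BD Rhapsody platform. The tail library came from pups in the first days after birth and the brain library from whole brains of young adult mice. The transgenic mice were bred with wild-type mice of a CD1 or a mixed CD1 and C3H background. The number of animals behind each library was not given in the sources used here. With 1 library for each tissue there is no replicate check, the tissue, the age and the library cannot be told apart, and no p-value is given. All 9 genes had at least 1 molecule in the tail cells, and 8 had one in the kept brain cells, where Robo3 was at 0.

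Slits are large secreted proteins that bind Robo receptors on growing axons and migrating cells and usually repel them. Netrin-1, the product of Ntn1, attracts axons through Dcc and repels them where an Unc5 receptor such as Unc5c is present. In the developing spinal cord and hindbrain the floor plate secretes both netrin and Slits, and Robo3 is known for its role in axons that cross the midline. Unlike Robo1 and Robo2, mammalian Robo3 does not bind Slits with high affinity, and NELL2 is a known ligand of it.

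The members are long genes for the most part, and Robo1 and Robo2 are neighbours on chromosome 16 (72308306 to 73046095 on the plus strand and 73891839 to 74411825 on the minus strand, GRCm38). Robo3 is the shortest, 17.6 kb on chromosome 9 (37415669 to 37433246, minus strand). Ntn1 spans 191.5 kb of chromosome 11 (68209364 to 68400823, minus strand), Slit2 324.6 kb of chromosome 5 (47983138 to 48307733, plus strand) and Slit3 587.3 kb of chromosome 11 (35121224 to 35708507, plus strand). All are annotated as protein coding. Promoter sequences from RefSeq (GRCm38.p6) were at hand for 6 of the 9 members. Those of the Robo genes, receptors of 1 family with unlike patterns over the kinds of cell, and of Slit2, a ligand, are printed from the plus or minus strand as transcribed, cut to the bases upstream of any annotated exon (Robo3, chr9:37433247-37433425; Robo1, chr16:72662899-72663148, upstream of a start inside the longer annotated gene; Robo2, chr16:74411826-74412075; Slit2, chr5:47982905-47983137). Capitals mark CANNTG, the E-box letters read by basic helix-loop-helix factors, a class to which the anchor gene product NHLH2 belongs.
Robo3: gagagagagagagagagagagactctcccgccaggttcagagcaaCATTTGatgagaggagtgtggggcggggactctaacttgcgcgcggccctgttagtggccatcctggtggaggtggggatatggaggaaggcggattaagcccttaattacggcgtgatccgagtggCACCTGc
Robo1: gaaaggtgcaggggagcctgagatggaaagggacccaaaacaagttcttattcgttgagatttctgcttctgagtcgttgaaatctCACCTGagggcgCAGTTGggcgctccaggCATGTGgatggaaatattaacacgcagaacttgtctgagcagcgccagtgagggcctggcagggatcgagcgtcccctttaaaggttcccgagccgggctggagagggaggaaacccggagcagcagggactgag
Robo2: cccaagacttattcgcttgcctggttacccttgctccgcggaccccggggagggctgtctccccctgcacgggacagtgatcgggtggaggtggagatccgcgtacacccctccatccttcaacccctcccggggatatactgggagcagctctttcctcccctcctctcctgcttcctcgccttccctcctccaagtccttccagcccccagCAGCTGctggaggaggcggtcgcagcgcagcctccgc
Slit2: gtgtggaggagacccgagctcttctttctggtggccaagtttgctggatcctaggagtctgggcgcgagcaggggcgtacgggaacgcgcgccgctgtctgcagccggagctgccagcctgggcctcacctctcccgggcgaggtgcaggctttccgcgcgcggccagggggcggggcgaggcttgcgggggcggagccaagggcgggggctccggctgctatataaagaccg
The motif reads the same on both strands, so matches on either strand are the same ones. It occurred 2 times in the 179 bases of Robo3, 3 times in the 250 bases of Robo1, 1 time in the 250 bases of Robo2, and 0 times in the 233 bases of Slit2. It is common in promoters at large, since 55.33% of all windows cut to the length of the Robo3 one held it, 66.22% of those of 250 bases and 63.89% of those of 233 bases. A match describes letters and not a bound site.

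A cell was kept if it had over 200 and below 4000 genes and a mitochondrial share of molecules below 40%, which left 1964 of 2469 tail barcodes (2817103 molecules, median 1282.5 per cell) and 7988 of 12111 brain barcodes (6424466 molecules, median 696). Kinds of cell were defined by an anchor gene. In the tail, 1114 cells were marked by Igfbp5 (ependymoglial markers), 37 by Tmem212 (multiciliated ependymal), 68 by Pkd2l1 (cerebrospinal fluid-contacting neuron), 66 by Nhlh2 (immature neuron) and 174 by Col1a1 (fibroblast), 504 by none and 1 by several. In the brain, 940 were marked by Dlx1 (neuroblast), 4188 by Slc1a3 (astroglia) and 2860 by neither. Each kind held 9 or 10 of the 10 genes on its own marker list, which includes its anchor. That count does not set the kinds apart, since the Igfbp5 cells also held all 10 genes of the fibroblast and of the astroglia list. The fibroblast list was at 214.1 CPM in the Igfbp5 cells and at 72306.7 CPM in the Col1a1 cells, while the Igfbp5 list reached 15550.5 CPM in the Col1a1 cells. Sox1, the gene whose reporter was sorted on, was at 73.1 CPM in the Igfbp5 cells, 59.9 in the Tmem212, 459.3 in the Pkd2l1 and 21.7 in the Nhlh2 cells, and at 208.6 and 86.9 in the Dlx1 and Slc1a3 brain cells. The Col1a1 cells held 1 Sox1 molecule in 174 cells, and the part of cells sorted without Sox1 in the values was not tested. CPM is the gene's count scaled to 1e6 molecules of the cells named. A molecule was tagged at the 3′ end of a transcript, so levels of different genes are compared without scaling by length. Intervals are exact 95% intervals that cover counting error only, and a count of 0 allows up to 3 molecules. The libraries shared 18 kept cell barcodes, 0.9165% of the kept tail cells.

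Ntn1 was the most counted member (1832 tail and 189 brain molecules), and the Igfbp5-marked tail cells held 1634 of them. Its level there was 1182 CPM (1125 to 1241). In the Tmem212 cells it was 854 CPM (647 to 1110), from 57 molecules. The order then ran from 194 CPM (153 to 243) in the Col1a1 cells to 62.3 (26.9 to 123) in the Pkd2l1 cells, 36.8 (30.8 to 43.6) in the brain Slc1a3 cells, 32.5 (6.71 to 95.1) in the Nhlh2 cells and 1.13 (0.0287 to 6.32) in the Dlx1 cells, where 1 molecule was found in 940 cells. The Igfbp5 cells exceeded the Tmem212 cells 1.38-fold (1.06 to 1.84), and the Tmem212 cells exceeded the Col1a1 cells 4.40-fold (3.07 to 6.28). The Pkd2l1, Slc1a3 and Nhlh2 cells, neighbours in that order, did not differ beyond counting error.

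**Figure D1:**
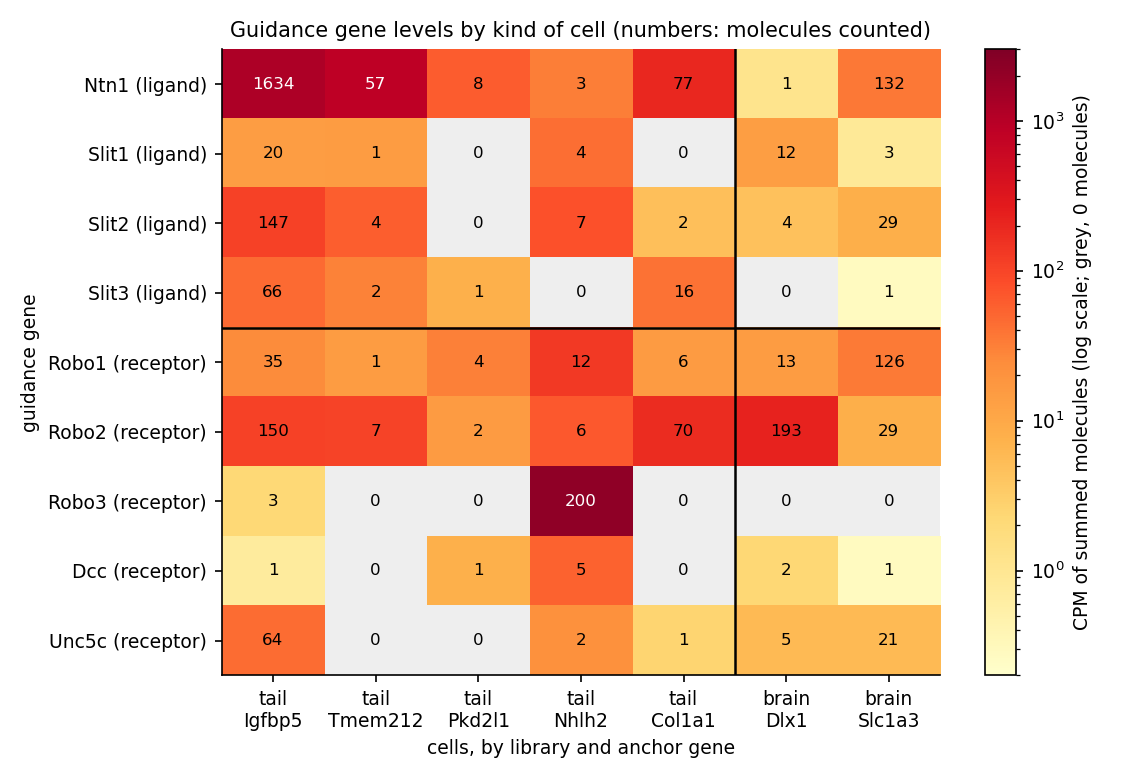
Level of each guidance gene (rows, ligands above the line) in each kind of cell (columns, by library and anchor gene) as CPM of summed molecules on a log colour scale, with the number of molecules printed in each cell and grey for 0. The darkest fields are Ntn1 in the Igfbp5 and Tmem212 tail cells (1634 and 57 molecules) and Robo3 in the Nhlh2 tail cells (200 molecules).

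Single cells varied widely in Ntn1. Of the 1114 Igfbp5 cells, 622 held a molecule (55.83%), 278 held exactly 1, 142 held 2, and the highest held 28. With every cell thinned to 400 molecules the share was 30.1% (27.4 to 32.9), against 24.3% in the Tmem212 cells, 8.62% in the Col1a1 cells and 1.41% in the brain Slc1a3 cells. As a background within the tail, 1 of the 81 cells with at least 2 molecules of the keratinocyte gene Krt5 held Ntn1, a share of 1.23% (0.0312 to 6.69) at a median of 2111 molecules before thinning. In the barcodes that the cell filter removed, the tail held 15 Ntn1 molecules, or 96.4 CPM.

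Ntn1 was not uniform over cells grouped by their number of multiciliated markers. Among all Igfbp5 and Tmem212 cells, Ntn1 was 1011 CPM (919.5 to 1109) in the 401 cells with none of the 10 multiciliated markers, 1401 (1268 to 1545) in the 216 cells with 2 of them, and 549 (412 to 716) in the 49 cells with 5 or more. Median depth also rose over these groups, with 990, 1263 and 1691 molecules per cell. The same 49 cells held Slit2 at 20.3 CPM, from 2 molecules, and their Igfbp5 level was 7246 CPM against 18290 to 23710 CPM in the other groups. Cells of the Igfbp5 kind were chosen for at least 3 Igfbp5 molecules and Tmem212 cells were not, so the selection enters this Igfbp5 contrast. The Tmem212 value depended on how the cells were chosen: it was 158 CPM in the 95 cells assigned by the whole marker list, of which 20 were also Tmem212-marked.

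Slit2 and Slit3, ligands of Robo1 and Robo2, were also mostly in the Igfbp5 cells, at far lower levels than Ntn1. Slit2 had 147 molecules there, 83.05% of the tail total, a level of 106 CPM (89.8 to 125) in 120 cells. The Nhlh2 cells held Slit2 at 76.0 CPM (30.5 to 156) and the Tmem212 cells at 59.9 CPM, from 7 and 4 molecules. Neither differed beyond counting error from the kind next above it in level. The Tmem212 cells exceeded the brain Slc1a3 cells (8.08 CPM, 29 molecules) 7.41-fold (1.89 to 21.1). Slit2 was at 5.04 CPM in the Col1a1 cells and 4.53 CPM in the Dlx1 cells, from 2 and 4 molecules, and at 0 in the Pkd2l1 cells, which allows up to 23.4 CPM.

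Slit3 had 66 molecules in the Igfbp5 cells (47.7 CPM, 36.9 to 60.7) and 16 in the Col1a1 cells (40.3 CPM, 23.1 to 65.5), and these kinds did not differ in it beyond counting error (1.18-fold, 0.678 to 2.19). The Tmem212 cells held 2 molecules, the Pkd2l1 cells 1 and the Nhlh2 cells 0. The whole brain library held 1 Slit3 molecule, in a Slc1a3 cell.

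Slit1 was counted the least of the ligands in the tail. It had 20 molecules in the Igfbp5 cells (14.5 CPM), 12 in the Dlx1 cells (13.6 CPM, 7.03 to 23.8) and 4 in the Nhlh2 cells (43.4 CPM, 11.8 to 111). The Dlx1 cells exceeded the brain Slc1a3 cells, which had 3 molecules, 16.3-fold (4.39 to 89.9). Slit1 was thus the only Slit with over 10 molecules in the Dlx1 cells.

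Robo3 had 275 molecules in 64 kept tail cells and 0 in the 7988 kept brain cells, which allows a share of up to 0.0376%. The barcodes that the cell filter removed held 3 tail and 1 brain molecules of Robo3. The Nhlh2 cells held 200 of the molecules, at 2170 CPM (1880 to 2492). Of those 66 cells, 44 held Robo3, and the share was 54.5% (41.8 to 66.9) after thinning to 400 molecules. The Pkd2l1, Tmem212, Col1a1, Dlx1 and Slc1a3 cells held 0 molecules, and in the 174 Col1a1 cells, a background for a gene of neurons, this allows a share of up to 1.72%. The Igfbp5 cells held 3 molecules, all in 1 cell. Against the Igfbp5 cells, the next kind in order, the Nhlh2 cells were 1000-fold higher (337 to 4890). Since a cluster of cells led by Robo3 and Nhlh2 was already known from these libraries when the genes were chosen, these levels are a description.

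**Figure D2:**
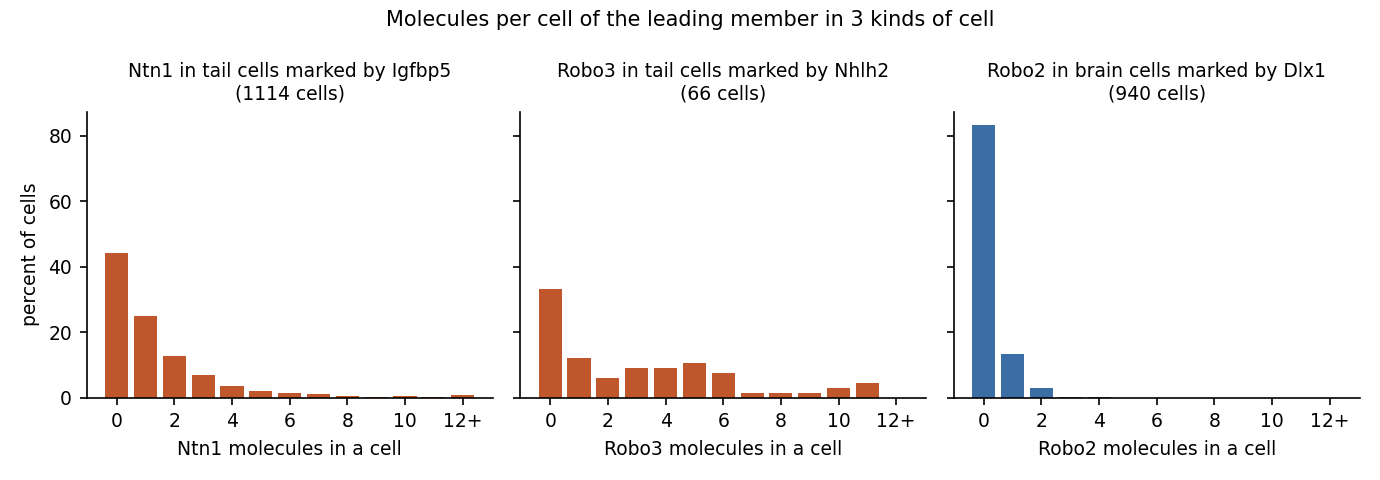
Percent of cells (vertical axis, bars) by the number of molecules of a gene in the cell (horizontal axis, with 12 or more together) for Ntn1 in the 1114 Igfbp5 tail cells, Robo3 in the 66 Nhlh2 tail cells and Robo2 in the 940 Dlx1 brain cells. Cells with 0 molecules number 492 for Ntn1, 22 for Robo3 and 783 for Robo2, and Robo3 has a second mode away from 0, with a median of 4 molecules in the cells that hold it.

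The share of tail cells with Robo3 was higher where more Nhlh2 was counted. It was 0.481% (0.220 to 0.912) of the 1870 cells with no Nhlh2 molecule and 40.7% (22.4 to 61.2) of the 27 cells with 1. It was 70.3% of the 37 cells with 3 to 5 Nhlh2 molecules and 75% (34.9 to 96.8) of the 8 cells with 6 or more. The intervals of the groups with 1 or more Nhlh2 molecules overlap, and those groups lie apart from the cells with none. The 20 Robo3 cells outside the Nhlh2 kind (19 with no anchor and 1 Igfbp5 cell) held 75 molecules, 11 of them held 1 Nhlh2 molecule, and they held a median of 3.5 of the 10 immature neuron markers, against 5 in the Nhlh2 cells and 0 in the Igfbp5 cells.

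Within the Nhlh2 cells, the 44 with Robo3 were set against the 22 without it for the genes named here and not for all genes. A few of these genes differed beyond counting error, and no interval lay wholly beyond 4-fold. Cntn2, an adhesion molecule of early axons also called TAG-1, had 41 molecules in the cells with Robo3 and 1 in those without, a ratio of 19.0 (3.23 to 770). Dcx, a microtubule protein of immature neurons, was 1.86-fold higher (1.19 to 3.01), and Nell2 was 2.71-fold higher (1.13 to 7.88). Robo2 had 1 molecule in the cells with Robo3 and 5 in those without, 3 of the 5 in 1 cell. Nhlh2 itself (0.963, 0.735 to 1.27) and Neurod1 (0.587, 0.308 to 1.13) did not differ beyond counting error. Neither did the markers Nhlh1, Neurod2, Neurod6, Stmn2, Tubb3 and Ebf2, or the members Robo1, Dcc, Unc5c, Slit1 and Slit2. Cells with Robo3 had a median of 1443 molecules and cells without it 1321.5.

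Robo2, a Slit receptor, was spread over more kinds. Its highest level was 219 CPM (189 to 252) in the Dlx1 brain cells, where 157 of 940 cells held it. The Col1a1 tail cells followed at 176 CPM (138 to 223), and the 1.24-fold gap (0.938 to 1.65) was within counting error. They exceeded the Igfbp5 cells, at 108 CPM (91.8 to 127), 1.63-fold (1.21 to 2.17). The Tmem212 cells held 105 CPM and the Nhlh2 cells 65.1 CPM, from 7 and 6 molecules, and the Pkd2l1 cells 15.6 CPM from 2. The brain Slc1a3 cells had the lowest level, 8.08 CPM (5.41 to 11.6). As a background, 1 of the 41 brain cells with at least 2 molecules of the microglial gene Ctss held a Robo2 molecule before thinning and 0 after it.

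Brain cells with any Dlx1 held Robo2 more often, at a share that did not differ beyond counting error with the number of Dlx1 molecules. Robo2 was present in 1.43% (1.16 to 1.75) of the 6506 brain cells with no Dlx1 molecule and in 13.7% (10.9 to 16.8) of the 542 cells with 1. The shares in cells with 2, with 3 to 5 and with 6 or more Dlx1 molecules were 17.0%, 15.7% and 21.0% (12.7 to 31.5). Brain cells with neither anchor held 42.78% of the library's Robo2 molecules, beside 1953590 of its 6424466 molecules of all genes. Among these unmarked cells, the 452 with 5 or more of the 10 neuroblast markers held Robo2 at 264 CPM (211 to 326), close to the Dlx1 cells, and the 1749 cells with none of the markers at 2.60 CPM, from 3 molecules. Cycling genes were also higher in the Dlx1 cells (1947.4 CPM for the list of 5) than in the Slc1a3 cells (36.5 CPM). Without cells holding a cycling gene, Robo2 in the Dlx1 cells was 289.7 CPM (246.9 to 337.7).

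**Figure D3:**
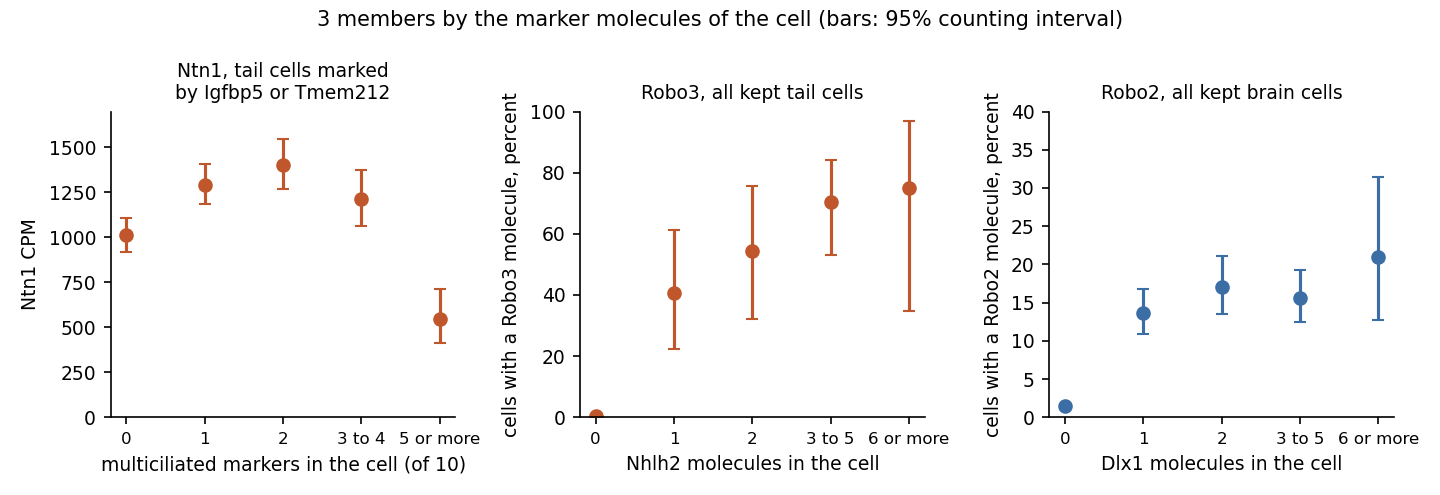
Ntn1 level (CPM) by the number of multiciliated markers in Igfbp5 or Tmem212 tail cells, percent of tail cells with Robo3 by their Nhlh2 molecules, and percent of brain cells with Robo2 by their Dlx1 molecules, with points for each group of cells and bars for the 95% counting interval. Ntn1 is lowest in the cells with 5 or more markers (549 CPM), while the Robo3 share goes from 0.481% to 75% and the Robo2 share from 1.43% to 21.0% between the outer groups.

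Robo1, the other Slit receptor of this pair, was found in every kind at low levels. The Nhlh2 cells were highest at 130 CPM (67.3 to 227), from 12 molecules in 8 cells, 3.71-fold (1.87 to 6.71) above the brain Slc1a3 cells at 35.1 CPM (29.2 to 41.8). The Pkd2l1 (31.1 CPM), Igfbp5 (25.3), Col1a1 (15.1), Tmem212 (15.0) and Dlx1 (14.7) cells followed with no neighbours apart beyond counting error. The interval of the Slc1a3 cells still lay above that of the Dlx1 cells (7.85 to 25.2 CPM). In the brain, the Slc1a3 cells, the kind lowest in Robo2, held 66.32% of the Robo1 molecules. They also held 3588664 of the library's 6424466 molecules of all genes. The 81 tail cells with the keratinocyte gene Krt5 held Robo1 at 93.0 CPM (54.2 to 149), from 17 molecules, and 0 molecules of Sox1.

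The netrin receptors were scarce. Dcc totalled 10 tail and 4 brain molecules, and 5 of the tail ones were in the Nhlh2 cells (54.2 CPM, 17.6 to 127). Unc5c had 64 molecules in the Igfbp5 cells (46.3 CPM, 35.6 to 59.1), which held most of the 77 in the tail, and 21 in the brain Slc1a3 cells (5.85 CPM). The Tmem212 and Pkd2l1 cells held no Unc5c, and the Nhlh2 cells 2 molecules. No neighbouring kinds in the order of either gene differed beyond counting error. For Unc5c, the interval of the Igfbp5 cells still lay above that of the Slc1a3 cells (3.622 to 8.945 CPM), which were not neighbours in that order.

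Summed over the 4 ligands and the 5 receptors, the kinds fell on either side of equal counts. The Igfbp5 cells held 1867 ligand and 253 receptor molecules, a ratio of 7.38 (6.47 to 8.45). The Tmem212 cells held 64 and 8, a ratio of 8 (3.83 to 19.3). The Nhlh2 cells held 14 and 225, a ratio of 0.0622 (0.0335 to 0.107), and the Dlx1 cells 17 and 213, a ratio of 0.0798 (0.0456 to 0.131). Among these 9 members, the Nhlh2 and Dlx1 cells were therefore the receptor-rich kinds. Of their receptor molecules, 200 were from Robo3 in the former and 193 from Robo2 in the latter. The Nhlh2 ratio sets Robo3 mainly against Slits, which it does not bind with high affinity. In the Pkd2l1 cells (9 and 7 molecules, 1.29, 0.426 to 4.06), the Col1a1 cells (95 and 77, 1.23, 0.904 to 1.69) and the Slc1a3 cells (165 and 177, 0.932, 0.749 to 1.16) the interval included 1. Over all kept cells the ratio was 2.84 (2.61 to 3.09) in the tail and 0.435 (0.376 to 0.503) in the brain.

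The ligand pairs of the receptors behaved differently from the sum. In the Igfbp5 cells, Slits exceeded Robos by 1.24-fold (1.02 to 1.51), with 233 and 188 molecules, and Ntn1 exceeded Dcc and Unc5c 25.1-fold (19.6 to 32.7). In the Col1a1 cells the Slit to Robo ratio was 0.237, with 18 and 76 molecules, beside 77 Ntn1 molecules and 1 of Dcc or Unc5c. In the brain Slc1a3 cells the ratio was 0.213 for Slits and Robos and 6 (3.8 to 9.90) for Ntn1 against Dcc and Unc5c. The near-equal total of the members in those cells was thus made of a Robo excess, mainly Robo1, and an Ntn1 excess over Dcc and Unc5c. Neo1 and Unc5b, other receptor genes, were not in these sums. They had 39 and 22 molecules in the Col1a1 cells, 611 and 11 in the Slc1a3 cells and 314 and 3 in the Igfbp5 cells. Other ligand genes were left out too, among them Nell2 and Draxin. These had 41 and 5 molecules in the Nhlh2 cells, 122 and 153 in the Dlx1 cells and 620 and 21 in the Igfbp5 cells. Without the leading ligand and receptor of each kind, the Igfbp5 ratio was 2.26 and the Nhlh2 ratio 0.280.

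**Figure D4:**
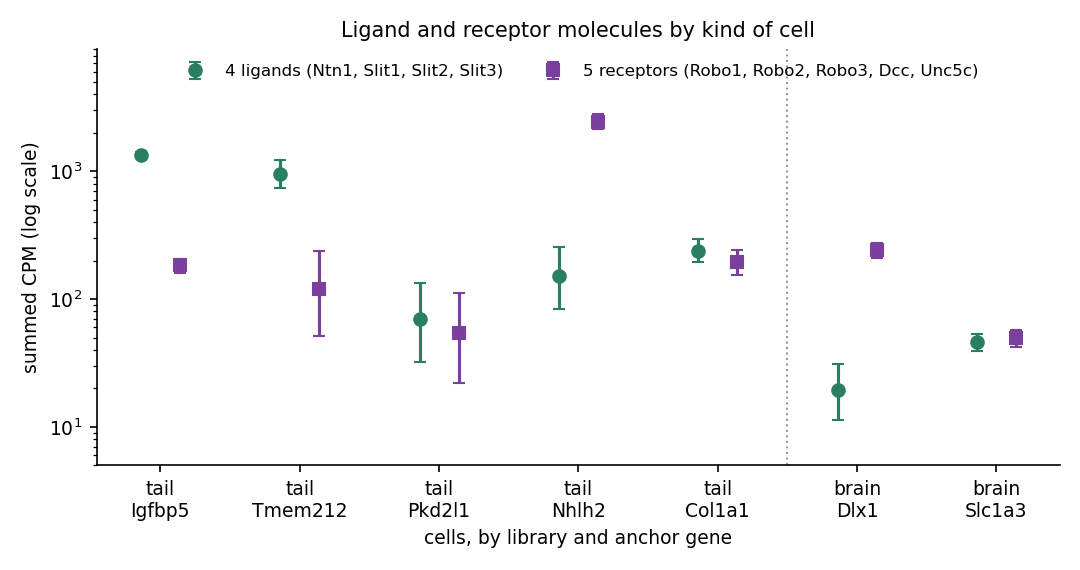
Summed CPM (log axis) of the 4 ligands (circles) and the 5 receptors (squares) in each kind of cell, with exact 95% Poisson intervals as bars. Ligands lie above receptors in the Igfbp5 and Tmem212 tail cells (ratios 7.38 and 8), receptors above ligands in the Nhlh2 tail and Dlx1 brain cells (0.0622 and 0.0798), and the intervals of the other kinds overlap.

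The share of cells with both a ligand and a receptor was between 0 and 18.92% over the 7 kinds. In the Igfbp5 cells 687 cells (61.67%) held a ligand and 203 (18.22%) a receptor, and 131 (11.76%, 9.93 to 13.8) held both. A receptor was found in 19.07% of the cells with a ligand and 16.86% of those without. In the Tmem212 cells all 7 cells with a receptor also held a ligand, as 23 of the 37 cells did. In the Col1a1 cells a receptor was in 34.48% of the cells with a ligand and in 22.41% of those without, and cells with a ligand were deeper (median 2621.5 against 1795.5 molecules). Among the Igfbp5 cells, a Slit and a Robo occurred together in 23 of the 1114 cells. In the Nhlh2 cells 10 of 66 held both, and Robo3 occurred with Robo1 in 6 cells and with Dcc in 2. In the Dlx1 cells 17 held a ligand and 170 a receptor, and none held both, which allows a share of up to 0.319%. At these depths, with medians of 760 to 1973.5 molecules per cell, a cell without a molecule of a rare gene is not shown to lack its transcript.

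Against all other kept cells of its own library, each kind was then compared for every gene with at least 50 molecules (8236 genes in the tail, 9811 in the brain), and a gene was called where the whole interval lay beyond 4-fold. In the Igfbp5 cells, where 3.84% of all genes tested were called in either direction, Ntn1 was 8.56-fold higher (7.39 to 9.98) and Robo3 87.4-fold lower (29.6 to 426). Slit2 (5.09-fold, 3.42 to 7.80) and Unc5c (5.11-fold, 2.79 to 10.1) were higher without being called, as was Slit3 (2.08-fold, 1.35 to 3.25). In the Nhlh2 cells (1.97% called), Robo3 was 78.8-fold higher (60.2 to 104) and Ntn1 20.6-fold lower (7.05 to 100). Robo1 was 4.86-fold higher there (2.40 to 9.01) and not called. In the Pkd2l1 cells (2.83% called) Ntn1 was 10.9-fold lower (5.52 to 25.3), and in the Tmem212 cells (1.03% called) no member was called. Ntn1 was there 1.32-fold the level in the other tail cells (0.998 to 1.72), and its direction turned, to 0.231, when cells were assigned by marker lists.

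In the Col1a1 cells (6.67% called) Robo3 was at least 15.0-fold lower against a floor of 3 molecules, with 0 against 275, and the limit of its exact interval was 12.1-fold. Slit2 was 14.3-fold lower (3.91 to 119) and Ntn1 3.74-fold lower (2.97 to 4.76), neither called, and Robo2 was 1.81-fold higher (1.37 to 2.37). In the Dlx1 brain cells (9.77% called) Robo2 was 6.22-fold higher (5.07 to 7.63) and Ntn1 29.9-fold lower (5.31 to 1188). The Robo2 call depended on the choice of cells: the value was 4.03 (3.2 to 5.05) with more anchor molecules required and 4.84 (3.94 to 5.95) with under 20% mitochondrial molecules, and neither was called. In the Slc1a3 cells (6.26% called) Robo2 was 15.7-fold lower (10.7 to 23.7), while Ntn1 (1.83-fold, 1.33 to 2.54) and Robo1 (1.56-fold, 1.14 to 2.14) were higher and not called. Over the 7 kinds these came to 3 calls higher and 6 lower, beside 4.80% of all gene tests called. Slit1 and Dcc had too few molecules to be tested in the tail, and only Robo1, Robo2 and Ntn1 had enough in the brain. The other cells of a library include its other kinds, so these calls are not independent. The Nhlh2 cells held 200 of the 275 tail Robo3 molecules, and the Igfbp5 cells 1634 of the 1832 of Ntn1. The lower calls of both genes in the tail are not separate from those levels.

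All kept tail cells were also set against all kept brain cells. There 4 members were called, all higher in the tail, where 11.0% of 11347 genes were called in either direction and 6.35% in that direction. Robo3 was at least 209-fold higher against a floor of 3 molecules, with 275 molecules against 0, and the lower limit of its exact interval was 168.9-fold. Slit3 was 226-fold higher (39.6 to 9006), with 99 molecules against 1. Ntn1 was 22.1-fold higher (19.0 to 25.8) and Slit2 8.41-fold higher (6.08 to 11.8), with 177 molecules against 48. Of the called genes, 3 were ligands (of 4) and 1 was a receptor (of 5).

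The other members differed less between the libraries. Unc5c was 5.17-fold higher in the tail (3.41 to 7.98), Slit1 2.43-fold (1.43 to 4.14) and Robo2 1.80-fold (1.54 to 2.10), none of them called. Robo1 was 1.02-fold (0.781 to 1.32), an interval within 4-fold on both sides. Dcc, with 14 molecules in all, was not tested. The tail and the brain libraries held different kinds of cell, so fewer cells of a kind and fewer molecules per cell cannot be told apart in these totals. Another scaling of the libraries (TMM) shifted all ratios by -0.36 on the log2 scale and left the same 4 members called.

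**Figure D5:**
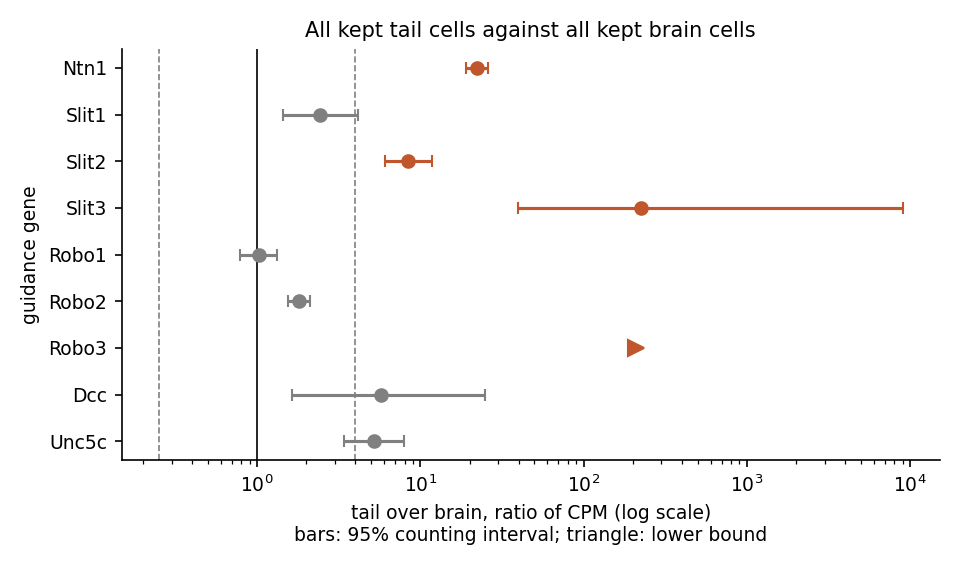
Ratio of CPM in all kept tail cells over all kept brain cells (log axis) for each guidance gene, with 95% counting intervals as bars, a triangle for a lower bound and dashed lines at 4-fold. The coloured points, Ntn1, Slit2, Slit3 and Robo3, have their whole interval beyond 4-fold higher in the tail, and the other 5 genes do not.

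Of 40 other genes of the Slit and netrin pathways, sorted into ligands, receptors and proteins inside the cell, 0 were called higher and 1 lower in the tail than in the brain, of 32 tested, beside 11.0% of all genes called. That one was Flrt1, a leucine-rich repeat membrane protein, which was 6.62-fold lower (4.77 to 9.46). The medians over the 4 ligands, 10 receptors and 18 inside proteins with enough molecules were 1.29, 0.21 and 0.05 as log2 ratios of CPM + 10, beside 0.20 over all genes tested. Among 21 genes of other guidance families, 6 of 19 tested were called higher in the tail, beside 6.35% of all genes: the semaphorins Sema3a (91.7-fold), Sema3c (15.6-fold) and Sema3f (31.3-fold), the semaphorin receptor Nrp2 (14.4-fold), the ephrin receptor Epha5 (6.22-fold) and the chemokine Cxcl12 (68.4-fold).

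Within the libraries, 13 calls were made in 188 tests of these pathway genes over the 7 kinds (6.91%), beside 4.80% over all genes tested. Nell2, the secreted ligand of Robo3, was at 448 CPM in the Igfbp5 cells (620 molecules) and 445 CPM in the Nhlh2 cells, and was 21.2-fold lower (9.71 to 58.0) in the Col1a1 cells. Those cells were also 11.0-fold lower in Ntn4, another netrin, and 8.14-fold higher (5.51 to 12.1) in Flrt2. The median log2 ratio of the 3 other ligands tested was -2.72 in the Col1a1 cells, beside -0.30 over all genes, and 1.77 in the Igfbp5 cells, beside -0.06. In the Pkd2l1 cells Pak1, a kinase that acts downstream of netrin signals, was 8.32-fold higher (5.38 to 12.6), and the semaphorin receptor Nrp2 7.24-fold higher.

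In the Dlx1 cells the netrin antagonist gene Draxin was 5.49-fold higher (4.39 to 6.86) and the receptor gene Cdon 7.14-fold higher (5.06 to 10.1), while Boc (0 against 137 molecules), Flrt1 (11.3-fold) and the syndecan Sdc3 (13.5-fold) were lower. In the Slc1a3 cells Draxin was 30.7-fold lower, Cdon 9.89-fold, Flrt3 9.40-fold and Srgap2, which binds Robo inside the cell, 5.66-fold lower. Robo2, Draxin and Cdon thus lay on the same side in each of these kinds, which are large parts of 1 library and are not independent of each other.

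Over the 7 kinds, the genes with levels most like each member were ranked by Pearson's r of log2(CPM + 10) among 10433 genes, as a description over 7 points that come from 2 libraries. Robo3 was most like Nhlh2 (0.9994), which defined a kind, Nhlh1 (0.9971) and Neurod1 (0.9939). Ntn1 was most like Nxn (0.9865), Gng5 (0.9838) and Tenm3 (0.979), and Slit3 like Tagln (0.9973), Dnajc10 (0.9839) and Thsd4 (0.9834). Slit2 was most like Hoxb5os (0.9797), Dcaf8 (0.9691) and Ndufaf8 (0.9558). For Robo2 the genes were Hmgb1 (0.9759), Trip13 (0.9681) and Spidr (0.9637), for Robo1 Homer2 (0.9728), Pdcd10 (0.9696) and Spock2 (0.9683), and for Unc5c Eya4 (0.9692), Guk1 (0.9665) and Efcc1 (0.9623). Slit1 and Dcc had fewer than 50 molecules over the kinds and were not ranked.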

How the data were processed

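Sox1-GFP+ cells of tail and brain were captured on BD Rhapsody as 1 library each. The deposited tables hold counts of molecules per cell and gene, which the authors made with the BD Rhapsody WTA Analysis Pipeline, version 1.10.1 per the file headers (GRCm38, GENCODE vM19), with errors in the molecular identifiers corrected. The deposited read counts per cell were not used. The study's methods name a different version of the pipeline.

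A cell entered if over 200 and below 4000 genes were detected in it and its mitochondrial share was below 40%. Scrublet marked 5 tail and 76 brain cells (0.2546% and 0.9514%), which were kept in the main values. A cell was marked by at least 2 molecules of Pkd2l1, Nhlh2, Tmem212 or Dlx1, or 3 of Igfbp5, Col1a1 or Slc1a3. In the tail a cell with none of the other anchors went to Igfbp5, and in the brain Dlx1 came before Slc1a3. Molecules were summed over the cells of a kind. Levels have exact Poisson intervals, shares Clopper-Pearson intervals and ratios conditional binomial intervals, all at 95%. Shares were also taken with each cell thinned to 400 molecules, leaving out shallower cells. A ratio was called where the whole interval lay beyond 4-fold and at least 50 molecules were counted. No test across samples was possible with 1 library per group, so edgeR served for TMM scaling alone. The calculations were tested on simulated data.

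The members, lists and tests were chosen with earlier results of these data known. Named were the members, the anchor genes, pathway genes called in a comparison and the 3 genes most like each member. Genes named outside this rule (Krt5 and Ctss cells, and the immature neuron genes) come from the marker lists, and Neo1 and Unc5b from the pathway receptors. A planned division of the Igfbp5 cells is not reported here. 4 alternatives were chosen after seeing the data: leaving out cells with a cycling gene, and grouping cells by ciliated markers, by Nhlh2 and by Dlx1 molecules. Gene positions are from GENCODE vM21 and promoter sequences from RefSeq. Python 3.11.15, numpy 2.4.6, scipy 1.17.1, pandas 2.3.3, scanpy 1.11.5, R 4.3.3 and edgeR 4.0.16 were used.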

Additional observations from a re-analysis of the deposited data

Results flagged for a closer look

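Robo2 in Slc1a3-marked cells went in opposite directions in the libraries. In the tail, the 216 cells with at least 3 Slc1a3 molecules held Robo2 at a ratio of 1.537 to the other tail cells, and in the brain the ratio of such cells to the others was 0.07317. The difference was not tested.

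Some members were counted in the barcodes that the cell filter removed, above the 3 molecules that a count of 0 allows. The excluded tail barcodes (505, with 155534 molecules) held 15 molecules of Ntn1. The excluded brain barcodes (4123, with 1037815 molecules) held 14 of Robo1, 8 of Robo2 and 4 of Ntn1.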

How the results depend on the processing

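No paired analysis was possible because each group is 1 library and the labels carry no replicate numbers that could pair them. Of 170 values of the main results recomputed under an alternative, 150 stayed within their interval or within 1.5 times the count, 20 moved and 0 reversed a call. A lost call did not count as reversed. The Robo2 call in the Dlx1 cells was lost with more anchor molecules required and with under 20% mitochondrial molecules. Among 1033 values of other results, 984 stayed and 49 moved. With more anchor molecules required, Ntn1 was 1244.2 CPM in the Igfbp5 cells and 519.7 CPM in the Tmem212 cells. With cells assigned by marker lists, Ntn1 in the Tmem212 kind was 157.9 CPM, Robo3 in the Nhlh2 kind 1489.4 CPM in 35.94% of cells, and 24 pathway calls were made in place of 13. As a mean over cells, Ntn1 was 1110.0 CPM in the Tmem212 cells and Robo2 278.8 CPM in the Dlx1 cells, and without cycling cells the latter was 289.7 CPM. The share of Igfbp5 cells with Ntn1 was 55.83% without thinning and 49.17% with 800 molecules, as deeper cells show more. With intervals beyond 2-fold, the kinds gave 6 calls higher and 11 lower, and the pathway 36. Without the leading ligand and receptor, the ligand to receptor ratio was 2.262 in the Igfbp5, 0.3333 in the Pkd2l1, 0.28 in the Nhlh2, 2.571 in the Col1a1, 0.25 in the Dlx1 and 0.6471 in the Slc1a3 cells. The Pkd2l1 value, from 16 molecules, turned direction with it, and Ntn1 in the Tmem212 kind against the other tail cells went from 1.32 to 0.231 by marker lists. The causes of these moves were not tested beyond what each alternative changes. Few molecules limit Dcc (14 in all) and Slit1, and few cells limit the Tmem212 kind (37).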
